A study of Rattus norvegicus with 6 samples.

Results

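Levels of 8 genes that encode regulators of AU-rich and stem-loop mRNA decay were compared in LPS-treated neonatal rat cardiomyocytes with and without a small interfering RNA against Mettl3: Zfp36, Zfp36l1, Zfp36l2, Elavl1, Khsrp, Zc3h12a, Rc3h1 and Rc3h2. They were taken by symbol from the deposited gene table, where each of the 8 symbols has 1 row among 32623 genes. The study sequenced 6 RNA libraries from primary ventricular cardiomyocytes of Sprague-Dawley rats aged 1 to 3 days after birth. In the siNC group (n = 3) cells received a negative-control small interfering RNA, and in the siMettl3 group (n = 3) one directed at Mettl3, which encodes the catalytic subunit of the m6A methyltransferase. The RNA acted for 24 h, and LPS, the bacterial endotoxin sensed by Toll-like receptor 4, was then present for 6 h in both groups. A library without LPS was not analysed here, so each level below is a level under LPS and not a response to it. All cells came from 1 isolate pooled from several rats. The p-values therefore measure the spread between these libraries, which may be technical.

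Many cytokine mRNAs carry AU-rich elements, runs of AUUUA and U in the 3′ untranslated region, and are short-lived because proteins that bind these elements recruit the decay machinery. ZFP36 (tristetraprolin) and its paralogues ZFP36L1 and ZFP36L2 bind AU-rich elements through paired CCCH zinc fingers and bring in the deadenylase complex. KHSRP also promotes decay of such mRNAs, whereas ELAVL1 (HuR) stabilizes them. A second route reads stem-loops: ZC3H12A (Regnase-1) is an endonuclease that cleaves inflammatory mRNAs, and the Roquin proteins RC3H1 and RC3H2 bind stem-loops in an overlapping set of transcripts.

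Of the 8 regulators 0 passed the threshold between siMettl3 and siNC (limma on log2(FPKM + 1), Benjamini-Hochberg adjusted p under 0.05 over 13105 tested genes), where 10.9% of all tested genes passed. FPKM corrects fragment numbers for gene length and depth. By edgeR on the counts 0 passed as well (9.98% of tested genes did), and by DESeq2 0 (18.3%). At an unadjusted p under 0.05 limma gave 2 of the 8, Zfp36l1 and Rc3h1, beside 31.4% of all tested genes. EdgeR gave 1, Zfp36, beside 27.6% of all tested genes, and DESeq2 gave 1, Rc3h1, beside 29.4%. The median log2 fold change of the 8 was 0.19 and that of all tested genes 0.067. By edgeR, which centres the libraries, these medians were 0.12 and 0.0025. The members numbered 7 with a fold change above 0 by limma and 6 by edgeR. Most tested genes were also above 0 by limma, since their median was 0.067. An excess among the 8 was not tested.

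The promoters of the ZFP36 family and of Zc3h12a are shown because they hold the steadiest members (Zc3h12a and Zfp36), the most abundant (Zfp36l1) and the one with the largest spread within groups (Zfp36l2). Each is the RefSeq window of 300 bases, 250 before the annotated start and 50 after it, on build GRCr8 and written 5′ to 3′ on the strand of the gene. Capitals mark matches on either strand to 4 motifs. These are the CArG box (by its name), the TATA box (TATANA), the AP-1 site (TGANTCA) and the cAMP-response half-site (TGACG). GC boxes (GGGCGG) were searched too and are left in lower case. An NF-kappaB consensus matched none of these windows, and only 4.18% of all 33469 promoter windows.
Zfp36 (chr1:92799059-92799358, minus strand): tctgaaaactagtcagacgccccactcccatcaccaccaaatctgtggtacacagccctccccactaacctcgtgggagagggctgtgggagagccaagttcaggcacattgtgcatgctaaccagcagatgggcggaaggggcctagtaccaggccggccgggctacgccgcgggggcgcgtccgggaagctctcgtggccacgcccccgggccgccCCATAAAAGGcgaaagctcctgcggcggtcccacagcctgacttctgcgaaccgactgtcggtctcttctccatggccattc
Zfp36l1 (chr6:104668641-104668940, minus strand): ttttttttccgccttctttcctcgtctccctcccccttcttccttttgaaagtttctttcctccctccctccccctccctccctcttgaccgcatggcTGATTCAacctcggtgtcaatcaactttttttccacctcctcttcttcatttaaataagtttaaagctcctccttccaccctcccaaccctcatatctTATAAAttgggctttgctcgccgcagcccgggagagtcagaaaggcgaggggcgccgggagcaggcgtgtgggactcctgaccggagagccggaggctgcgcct
Zfp36l2 (chr6:16242372-16242671, plus strand): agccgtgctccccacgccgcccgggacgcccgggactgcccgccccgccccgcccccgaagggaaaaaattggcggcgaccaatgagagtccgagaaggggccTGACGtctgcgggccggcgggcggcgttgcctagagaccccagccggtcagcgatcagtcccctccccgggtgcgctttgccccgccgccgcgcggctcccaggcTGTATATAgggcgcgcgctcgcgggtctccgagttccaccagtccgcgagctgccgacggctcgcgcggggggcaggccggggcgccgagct
Zc3h12a (chr5:142669936-142670235, minus strand): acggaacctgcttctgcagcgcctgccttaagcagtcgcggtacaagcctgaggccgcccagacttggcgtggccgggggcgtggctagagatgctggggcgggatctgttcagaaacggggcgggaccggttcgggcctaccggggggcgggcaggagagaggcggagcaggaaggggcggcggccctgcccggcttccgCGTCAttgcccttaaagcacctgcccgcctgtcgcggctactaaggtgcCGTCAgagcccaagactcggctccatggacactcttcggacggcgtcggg
The Zfp36 window holds a CArG box, the element read by serum response factor, which begins 32 bases before the start. CArG boxes occurred in 1.64% of 33469 promoter windows of this length. Zfp36l1 has a TATANA match that begins 54 bases before the start and a TGANTCA match, found in 26.5% and 7.33% of all windows. Zfp36l2 has overlapping TATANA matches from 42 bases before the start, 5 GC boxes and 1 TGACG. Zc3h12a has 5 GC boxes and 2 TGACG matches. At least 1 GC box was found in 33.1% of all windows and at least 1 TGACG in 21.2%. Shares for higher numbers of matches were not computed. G and C made up 68.7% of the Zc3h12a window and 75.3% of the Zfp36l2 window, beside a median of 51.7% over all windows. Of the 8 genes 7 were matched in the RefSeq table. A match describes the letters in these windows and is not a measured binding site.

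The data behind the values were deep. The total count per library was 71202469 to 76668751, and the lowest count of any of the 8 genes in a library was 1326. Read as fragment counts, they put counting error at no more than 2.75% of a value, so that the spread between libraries sets the precision. On the same reading, same-group libraries differed well beyond sampling noise (chi-square over its degrees of freedom 22.1 to 63.1). The deposited counts may derive from coverage, so both figures are approximate. Mettl3 was lower in the siMettl3 libraries, with mean FPKM of 16.9 ± 1.47 against 10.3 ± 0.355 (SD, n = 3), which is 60.6% of siNC (log2 fold change -0.67, SE 0.0741, limma adjusted p = 0.00661). Cardiomyocyte markers were abundant in every library (11 found of 12, summed level 24677 to 28662 FPKM in siNC and 20909 to 24403 FPKM in siMettl3, led by Nppa, Actc1 and Tnnt2), and 0 of 11 passed the threshold, although edgeR called 2 of them lower (Actc1 and Myh7) and DESeq2 4 (also Nppa and Actn2). Among the markers of other cells, 7 of 9 tested macrophage genes fell and 0 rose, with a summed level over all 13 of 87.4 to 107 FPKM in siNC and 45.8 to 60.6 FPKM in siMettl3. Of 9 fibroblast markers 6 fell and 0 rose (summed level 1490 to 1559 and 909 to 968 FPKM), of 6 smooth muscle markers 4 fell and 0 rose (4530 to 5139 and 3333 to 3606 FPKM), and of 4 tested endothelial markers 2 rose and 0 fell (16.5 to 19.0 and 19.7 to 21.5 FPKM, over 7). Beside these marker counts, limma called 10.9% of all tested genes, with 4.4% falling and 6.53% rising. EdgeR called 9.98% (6.59% falling) and DESeq2 18.3%. None of the markers found had a count of 0 in any library. In bulk RNA, fewer cells of a type and less RNA per cell cannot be told apart. Nor do these data show which cells made a marker transcript, such as Acta2, Tagln or Des of the smooth muscle list.

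Zfp36l1 had the highest level of the 8 in every library. It measured 51.2, 50.1 and 54.8 FPKM in siNC replicates 1, 2 and 3 and 55.9, 61.9 and 56.7 FPKM in siMettl3 replicates 1, 2 and 3. The groups do not overlap, with siMettl3 higher, which held for 2 of the 8 members and for 26.4% of all tested genes. The means were 52.0 ± 2.44 and 58.2 ± 3.26 FPKM (SD, n = 3), and the log2 fold change of 0.16 (SE 0.0614, limma adjusted p = 0.135) did not pass. By edgeR it was 0.086 (adjusted p = 0.404). The gene (ENSRNOG00000058646) spans 103308045 to 103313074 of chromosome 6, minus strand. All coordinates of the genes are those of the deposited table, whose build is not given in the sources used here. They differ from those of the GRCr8 promoter windows, where Zfp36 and Zfp36l2 lie on the opposite strand.

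Zfp36, which encodes tristetraprolin itself, was among the steadiest of the 8. Its levels were 33.0, 30.7 and 29.1 FPKM in the siNC libraries and 29.2, 30.0 and 29.3 FPKM in the siMettl3 libraries. The siMettl3 values all lie inside the siNC range. The means were 30.9 ± 1.96 and 29.5 ± 0.438 FPKM, a log2 fold change of -0.07 (SE 0.0586, limma adjusted p = 0.475). The 95% interval ran from 86.8% to 105% of the siNC level in FPKM + 1. By edgeR the fold change was -0.14 (adjusted p = 0.174). The table places Zfp36 (ENSRNOG00000058388) on the plus strand of chromosome 1, from 85380088 to 85382569.

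Zfp36l2, the third paralogue, had the largest spread within groups of the 8. It measured 4.92, 9.62 and 5.38 FPKM in siNC replicates 1, 2 and 3 and 4.92, 9.96 and 8.80 FPKM in siMettl3 replicates 1, 2 and 3. One siNC library and a pair of siMettl3 libraries were thus near the upper value and the other three near the lower, and the groups overlap over almost their whole range. The counts showed the same, from 1326 to 2698, with a counting error of at most 2.75% if they are fragment counts. The spread within groups (residual SD 0.466 on the log2 scale) was larger than in 97.6% of tested genes. Limma gave a log2 fold change of 0.22 (SE 0.295, adjusted p = 0.639), with a 95% interval from 71.7% to 189% of the siNC level in FPKM + 1. It was 0.49 without siMettl3 replicate 1 and 0.05 without siMettl3 replicate 2, so its size rested on which library was left out. Zfp36l2 (ENSRNOG00000005067) spans 7417425 to 7421456 of chromosome 6, minus strand.

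As shares of the family's summed FPKM, Zfp36l1 made up 55.4% to 61.4% in the siNC libraries and 59.8% to 62.1% in the siMettl3 libraries. Zfp36 made up 32.6% to 37.0% and 29.4% to 32.4%. These ranges do not overlap but lie close, at 32.6% in siNC replicate 3 and 32.4% in siMettl3 replicate 1. In FPKM, the siMettl3 values of Zfp36 all lie inside its siNC range. Zfp36l2 supplied 5.52% to 10.6% and 5.46% to 9.77%. The shares were not tested, and neither Zfp36 nor Zfp36l1 passed on its own.

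**Figure D1:**
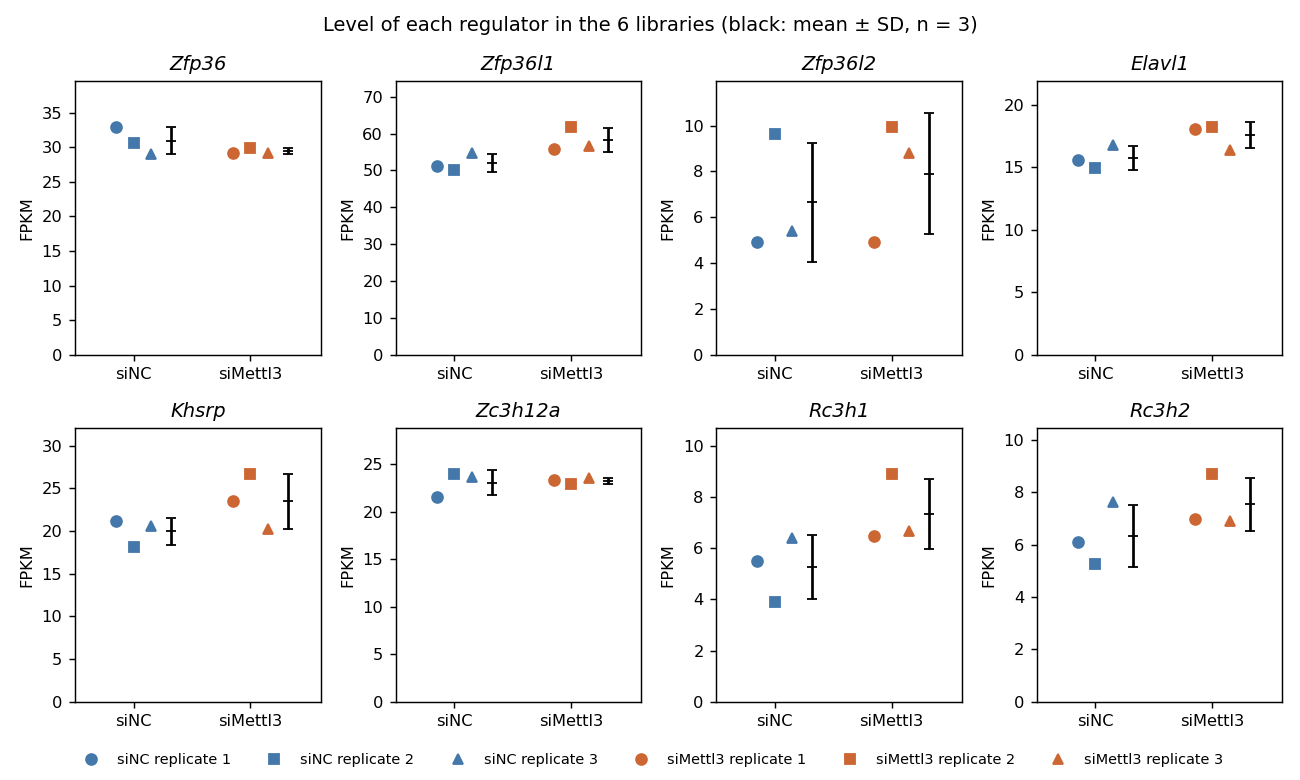
FPKM (vertical axes, from 0) of the 8 decay regulators in the siNC libraries (blue) and the siMettl3 libraries (orange), with the replicate shown by marker shape and the mean ± SD of 3 libraries in black. Zfp36 and Zc3h12a sit nearly level, Zfp36l2 ranges from 4.92 to 9.96 FPKM across both groups, and Zfp36l1 and Rc3h1 do not overlap between groups.

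Elavl1, the stabilizing member, measured 15.6, 14.9 and 16.8 FPKM in the siNC libraries and 18.1, 18.3 and 16.4 FPKM in the siMettl3 libraries. Replicate 3 of siMettl3 lies within the siNC range, so the groups overlap. The means were 15.8 ± 0.948 and 17.6 ± 1.01 FPKM, and the log2 fold change of 0.15 (SE 0.0682, limma adjusted p = 0.184) did not pass. By edgeR it was 0.084 (adjusted p = 0.501). Elavl1 (ENSRNOG00000001069) runs from 2461502 to 2502432 on the plus strand of chromosome 12.

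Khsrp, a KH-domain protein that also acts in splicing and microRNA maturation, measured 21.1, 18.2 and 20.6 FPKM in the siNC libraries and 23.5, 26.7 and 20.3 FPKM in the siMettl3 libraries. Its siMettl3 values spread more than its siNC values (19.95 ± 1.57 and 23.5 ± 3.22 FPKM), and the groups overlap. Limma gave a log2 fold change of 0.22 (SE 0.107, adjusted p = 0.209). It was 0.13 without siMettl3 replicate 2 and 0.32 without siMettl3 replicate 3. Khsrp (ENSRNOG00000047628) is on the plus strand of chromosome 9, from 10013854 to 10022924.

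Zc3h12a, the Regnase-1 gene, was the steadiest of the 8. Its levels were 21.6, 24.0 and 23.7 FPKM in the siNC libraries and 23.3, 22.9 and 23.6 FPKM in the siMettl3 libraries, the second group inside the range of the first. The means were 23.1 ± 1.32 and 23.3 ± 0.311 FPKM. Limma gave a log2 fold change of 0.01 (SE 0.0572, adjusted p = 0.893), and the 95% interval ran from 91.9% to 111% of the siNC level in FPKM + 1. Its sign depended on the scaling, since edgeR gave -0.06 (adjusted p = 0.547). Zc3h12a (ENSRNOG00000009131) spans 143111074 to 143120165 of chromosome 5, minus strand.

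Rc3h1 had the largest limma log2 fold change of the 8 with all libraries included, although without siNC replicate 2 that of Zfp36l2 was larger (0.48 against 0.26). It measured 5.49, 3.91 and 6.40 FPKM in the siNC libraries and 6.46, 8.91 and 6.67 FPKM in the siMettl3 libraries. The groups do not overlap, but the highest siNC value and the lowest siMettl3 value, both near 6.4 FPKM, are close. The means were 5.26 ± 1.26 and 7.35 ± 1.36 FPKM, a log2 fold change of 0.42 (SE 0.176, limma adjusted p = 0.154). By edgeR it was 0.41 (adjusted p = 0.234). The 95% interval spanned 100.4% to 179% of the siNC level in FPKM + 1, and the spread within groups was above that of 92.3% of tested genes. The table annotates the Rc3h1 transcripts (ENSRNOG00000002750, plus strand of chromosome 13, from 78722763 to 78789266) as processed transcripts and retained introns, not as protein-coding.

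Rc3h2, the Roquin paralogue, measured 6.10, 5.27 and 7.61 FPKM in the siNC libraries and 6.99, 8.70 and 6.91 FPKM in the siMettl3 libraries. The groups overlap, because siNC replicate 3 exceeds a pair of the siMettl3 libraries. The means were 6.33 ± 1.19 and 7.54 ± 1.01 FPKM, and limma gave a log2 fold change of 0.23 (SE 0.137, adjusted p = 0.300). The ratio of Rc3h1 to Rc3h2 was 0.741 to 0.899 in siNC and 0.924 to 1.02 in siMettl3. Rc3h2 (ENSRNOG00000009196) spans 21623041 to 21670014 of chromosome 3, minus strand.

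**Figure D2:**
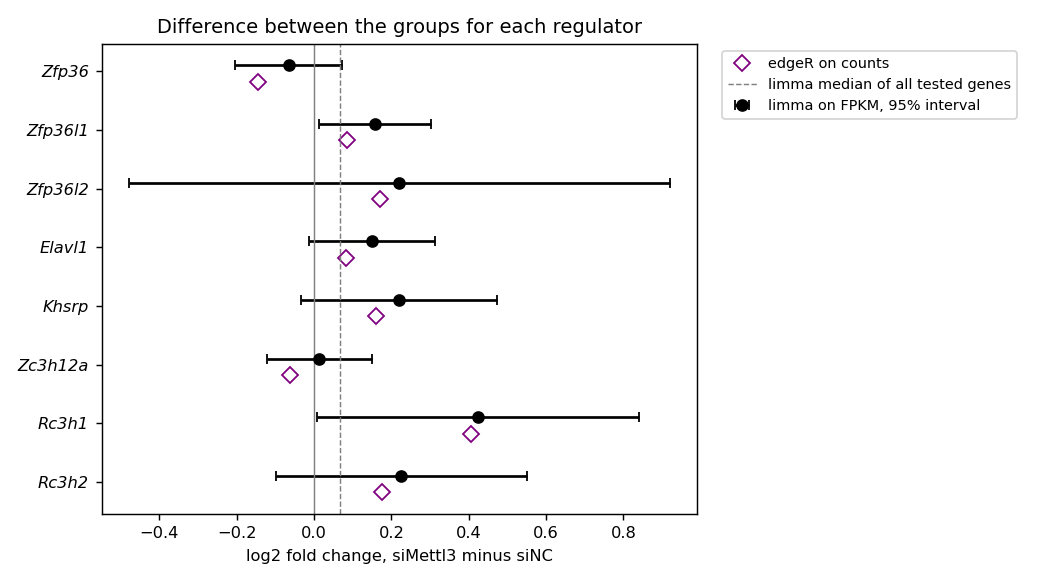
Log2 fold change (siMettl3 minus siNC, horizontal axis) of the 8 regulators by limma with its 95% interval (black) and by edgeR (open diamonds), beside no change (solid line) and the limma median of all tested genes, 0.067 (dashed line). The intervals of Zfp36 and Zc3h12a are narrow and those of Zfp36l2 and Rc3h1 wide, and the edgeR values lie below the limma values throughout.

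Several regulators had their extremes in the same pair of libraries. Of the 8 members 5, Zfp36l1, Elavl1, Khsrp, Rc3h1 and Rc3h2, were lowest in siNC replicate 2 and highest in siMettl3 replicate 2, an order that 19.5% of all tested genes had. Without both of these libraries, a setting chosen after seeing the data, the log2 fold change was 0.13 for Rc3h1, 0.02 for Rc3h2, 0.06 for Khsrp and 0.09 for Elavl1 and for Zfp36l1, against 0.42, 0.23, 0.22, 0.15 and 0.16 with all libraries. These 5 were picked for having their extremes there, so smaller values follow from the choice. The other three went from 0.22 to 0.31 (Zfp36l2), from 0.01 to 0.05 (Zc3h12a) and from -0.07 to -0.08 (Zfp36). Of the 8 members 0 passed the threshold in that fit, where 1.47% of all tested genes did (limma). Zfp36 and Zc3h12a did not follow this order: Zfp36 was highest in siNC replicate 1 and Zc3h12a in siNC replicate 2.

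**Figure D3:**
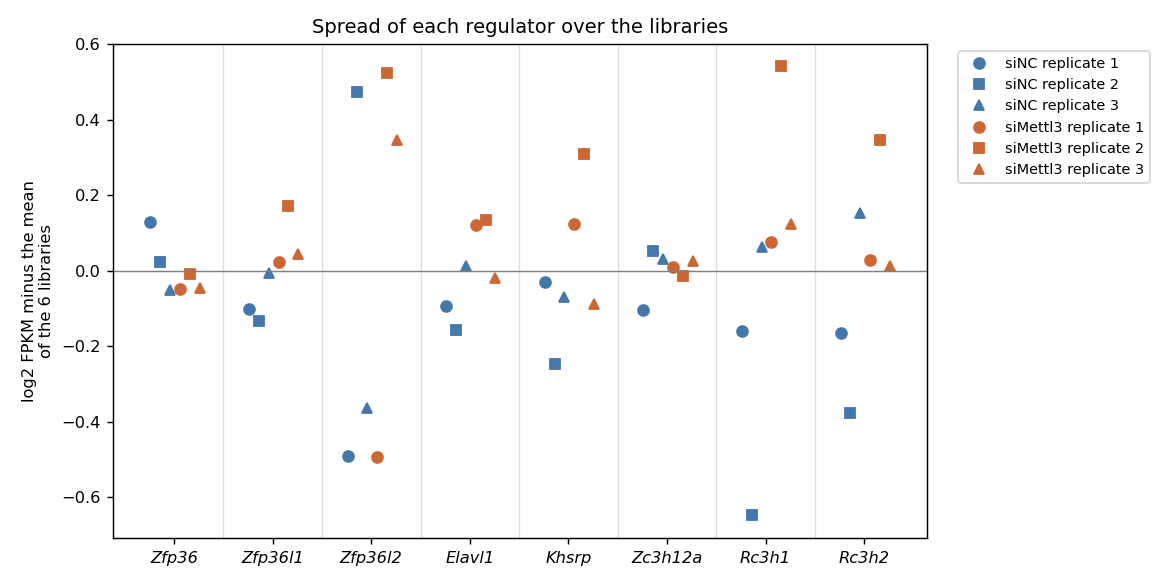
Log2 FPKM of each regulator in each library minus its mean over the 6 libraries (vertical axis), with siNC in blue, siMettl3 in orange and replicates by marker shape. The square markers of replicate 2 are the lowest (siNC) and the highest (siMettl3) for Zfp36l1, Elavl1, Khsrp, Rc3h1 and Rc3h2, while for Zfp36l2 both squares are high.

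On the per-length FPKM scale the levels over all 6 libraries ranked Zfp36l1, Zfp36, Zc3h12a, Khsrp, Elavl1, Zfp36l2, Rc3h2 and Rc3h1. Zfp36l1 averaged 1.82 times Zfp36, Zfp36 1.30 times Zc3h12a and Elavl1 2.30 times Zfp36l2, in 6 of 6 libraries each and with ranges that do not overlap. Khsrp was above Elavl1 in 6 of 6 libraries, although their ranges overlap. Neighbours that did not differ beyond their spread were Zc3h12a and Khsrp (higher in 4 of 6 libraries), Zfp36l2 and Rc3h2 (3 of 6) and Rc3h2 and Rc3h1 (5 of 6). Zfp36l1 stood above 89.6% and Rc3h1 above 35.1% of tested genes in mean FPKM.

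The genes whose pattern over the 6 libraries was most like that of Zfp36 were Man1b1 (Pearson r = 0.994), RGD1302996 (0.986) and Gps1 (0.976). For Zc3h12a they were Colec12 (0.987), Tada2a (0.978) and Etv4 (0.974). Each was ranked among 9263 genes averaging 5 FPKM or more, over 6 points that share 1 isolate, and is a description only.

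Of 9 tested genes for other mRNA-binding proteins, not all of them AU-rich binders, 0 rose and 0 fell by limma and by edgeR. Over all tested genes 10.9% passed by limma and 9.98% by edgeR. Unadjusted limma p was under 0.05 for 5 of the 9, beside 31.4% of all tested genes. The edgeR number was 2, beside 27.6%. The list's median limma log2 fold change was 0.16, beside 0.067 for all tested genes. Celf1, which binds GU-rich elements, went from 25.0, 28.5 and 33.95 FPKM in siNC to 35.6, 37.0 and 41.4 FPKM in siMettl3, in rising order (0.38, limma adjusted p = 0.0755), and did not pass. It passed without siNC replicate 3 (0.49, adjusted p = 0.0396) but not without siNC replicate 2 (0.28, adjusted p = 0.169). The RNA-binding repressor Pum2 (0.20), the stress-granule proteins Tial1 (0.16) and Tia1 (0.19) and Hnrnpd (AUF1, 0.12) did not pass. Hnrnpd, at 63.9 to 67.5 FPKM in siNC and 71.5 to 72.2 FPKM in siMettl3, was above Zfp36l1 in every library. The neuronal paralogues of Elavl1, namely Elavl2, Elavl3 and Elavl4, stayed at or below 0.320 FPKM and were not tested. Hnrnpa0 was not found under that symbol.

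Among the partners of the Regnase and Roquin proteins 1 of 6 tested genes rose and 0 fell (6.53% of all tested genes rose). Malt1, the paracaspase that cleaves Regnase-1, measured 17.8, 16.1 and 18.3 FPKM in siNC and 21.9, 23.4 and 21.6 FPKM in siMettl3, groups that do not overlap. Limma put the change at 0.34 on the log2 scale (SE 0.0652, adjusted p = 0.0261) and edgeR at 0.28 (adjusted p = 0.0372). It passed in 1 of the 6 fits with a library left out, that without siNC replicate 3. The adjusted p was 0.0869 without siNC replicate 1, 0.0684 without siNC replicate 2 and 0.0868, 0.0717 and 0.0595 without siMettl3 replicates 1, 2 and 3. Arid5a, which protects Il6 mRNA from Regnase-1, had a log2 fold change of -0.21 (17.4 ± 0.895 and 14.9 ± 1.37 FPKM, limma adjusted p = 0.123), and DESeq2 alone called it (-0.29, adjusted p = 0.0212). The helicase Upf1 (0.27), the Roquin cofactor Nufip2 (0.42), the Regnase paralogue Zc3h12c (0.36) and N4bp1 (-0.11), a related ribonuclease, did not pass. Zc3h12c and Nufip2 were also lowest in siNC replicate 2 and highest in siMettl3 replicate 2.

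The p38 kinase and its substrate kinase MK2 phosphorylate ZFP36, which restrains its decay activity and creates a binding site for 14-3-3 proteins, and DUSP1 switches p38 off. In this axis 1 of 10 tested genes rose and 2 fell (4.4% of all tested genes fell). Dusp1 measured 22.55, 24.3 and 22.04 FPKM in siNC and 12.8, 12.7 and 15.1 FPKM in siMettl3, well apart. Limma gave a log2 fold change of -0.73 (SE 0.0800, adjusted p = 0.00634), and it passed whichever single library was left out. The 14-3-3 gene Ywhab fell from 94.1 ± 1.08 to 82.8 ± 0.996 FPKM (-0.18, adjusted p = 0.0432), a call lost with quantile normalization (-0.16, adjusted p = 0.113). Mapkapk3, a kinase close to MK2, rose from 10.2 ± 0.731 to 13.4 ± 0.531 FPKM (0.37, adjusted p = 0.0242). With any 1 library left out Dusp1 alone of these 3 remained past the threshold, with Mapkapk3 at 0.0537 to 0.0720 and Ywhab at 0.0795 to 0.132. Mapkapk2, the MK2 gene itself, went from 98.6 ± 2.09 to 112 ± 2.48 FPKM (0.18, adjusted p = 0.0565) and did not pass, nor did the phosphatase subunit Ppp2r1a (0.15) or Mapk14, the p38 alpha gene (-0.12).

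Of 25 tested transcripts known to carry AU-rich elements, 6 fell and 0 rose by limma and by edgeR. Over all tested genes 4.4% fell by limma and 6.59% by edgeR. The list was chosen with earlier results of these data known, and an excess was not tested. The list's median log2 fold change was -0.09, with 17 of 25 below 0. Of the 6, 5 are described here. Ptgs2, the inducible cyclooxygenase, went from 12.0 ± 0.515 to 8.10 ± 0.130 FPKM (-0.52, adjusted p = 0.00664). Il6 (10.5 ± 0.760 to 6.00 ± 1.19 FPKM), Il1b (35.9 ± 6.66 to 19.2 ± 3.15 FPKM), the chemokine Ccl3 (34.0 ± 2.90 to 18.7 ± 3.03 FPKM) and Dusp1 fell too. Ptgs2 and Dusp1 passed whichever single library was left out. Without siMettl3 replicate 1 the number was 3, since Ccl3, Il6 and Il1b were lost (adjusted p = 0.0533, 0.0774 and 0.0692). Il6 was also lost without siNC replicates 1 and 2, and Il1b passed only without siNC replicate 3.

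Tnf, the classic target of tristetraprolin, measured 1.13, 3.14 and 4.34 FPKM in siNC and 3.90, 3.46 and 4.58 FPKM in siMettl3. The groups overlap, siNC replicate 1 is far below the rest, and limma gave a log2 fold change of 0.46 (SE 0.317, adjusted p = 0.359). Without siNC replicate 1 it was 0.077 (adjusted p = 0.783), and it was 0.74 without siNC replicate 3 (adjusted p = 0.135). Cxcl1 went from 425 ± 7.42 to 293 ± 68.9 FPKM (-0.56), groups that do not overlap, and did not pass by limma (adjusted p = 0.0670) or edgeR (0.0537), although DESeq2 called it (adjusted p = 7.43e-04), and limma called it without siMettl3 replicate 3 (0.0374). Il10, at up to 0.474 FPKM, was not tested.

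Among transcripts bound by Regnase-1 or the Roquin proteins through stem-loops 2 of 10 tested genes fell by limma, Il6 and Ptgs2, and 0 rose. Over all tested genes 4.4% fell and 6.53% rose. The list's median log2 fold change was -0.07. With quantile normalization Lcn2 was called higher as well (0.37, adjusted p = 0.0119). Il6 and Ptgs2 are also in the AU-rich list, as are Tnf, Cxcl1 and Ier3. Nfkbiz, an atypical IκB protein (9.47 ± 1.40 and 7.93 ± 0.722 FPKM, -0.22, limma adjusted p = 0.221), and the secreted siderophore-binding protein Lcn2 (319 ± 29.7 and 382 ± 43.8 FPKM, 0.26, adjusted p = 0.156) did not pass. Icos, Il12b and Tnfrsf4, which act mainly in lymphocytes or antigen-presenting cells, stayed at or below 0.530 FPKM.

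The transcripts that fell moved in the same direction as the macrophage markers, of which 7 of 9 fell (summed level 87.4 to 107 FPKM in siNC and 45.8 to 60.6 FPKM in siMettl3), and the fibroblast markers, of which 6 of 9 fell (1490 to 1559 and 909 to 968 FPKM). Over all tested genes 4.4% fell by limma. The part of macrophages and fibroblasts in the lower Il6, Il1b, Ccl3 and Ptgs2 levels was not tested. Zfp36, Zc3h12a and the other 6 regulators did not pass the threshold beside these shifts.

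**Figure D4:**
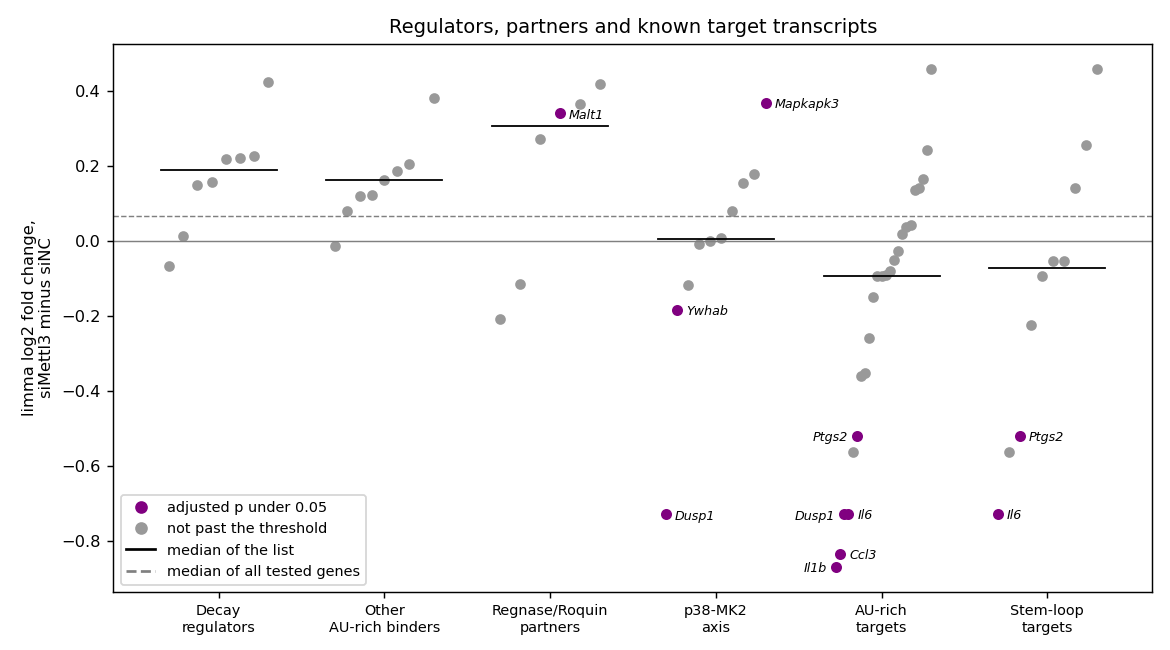
Limma log2 fold change (siMettl3 minus siNC, vertical axis) of the 8 decay regulators and of the tested genes in 5 lists of related genes (2 list genes not reported here are not drawn), with genes past the adjusted p threshold of 0.05 in purple and named, the median of each whole list as a black bar and the median of all tested genes as a dashed line. No decay regulator is purple, while 5 of the AU-rich targets drawn are, all below 0.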

How the data were processed

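RNA was measured in 6 libraries, 3 siNC and 3 siMettl3, grouped by the sample labels. Per the file headers, the authors' deposited table gives FPKM and counts for each gene and library. Genes without reads carry an FPKM of 0.0001. Counts are whole numbers. Their ratio to FPKM was constant within 1% in 98.7% of values after a library factor (14527 genes with at least 20 counts throughout). FPKM computed from fragment counts would give such a ratio too, so it cannot tell whether the deposited counts derive from coverage. Per the submitters' processing notes, Bowtie 0.12.2 and the mouse build mm8 were named without a role. The aligner, annotation and build of the rat table are not given in the sources used here.

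The 13105 genes averaging 1 FPKM or more were tested as log2(FPKM + 1) with limma 3.58.1 in R 4.3.3 (trend, 2-sided, Benjamini-Hochberg threshold 0.05 over all tested genes), which compresses the changes of low genes. Groups were compared as siMettl3 minus siNC. EdgeR 4.0.16 (quasi-likelihood, TMM) and DESeq2 1.42.0 on the counts were alternatives, as were other filters, pseudocounts, scalings and left-out libraries. The scripts were tested on simulated data. Where a symbol repeats, the row with the highest mean FPKM stood for it, and 117 of 121 listed symbols were found. The members and lists were chosen with earlier results of these data known. Named were the 8 members and Mettl3; of each list up to 6 tested genes with the smallest p; Tnf, Il6, Il1b, Ptgs2, Cxcl1 and Nfkbiz; the 3 genes most alike Zfp36 and Zc3h12a; and the highest 3 markers of a cell type. Further genes named in the text were chosen after their values were seen. Promoter windows are RefSeq's, on GRCr8. For 2 list genes the values are not reported here, although list counts and medians include them.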

Additional observations from a re-analysis of the deposited data

How the results depend on the processing

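Of the 8 regulators 0 passed the threshold by limma under all settings run, by edgeR with TMM or median-ratio factors, and by DESeq2. The log2 fold change of Zc3h12a changed sign with scaling: it was -0.063 by edgeR with TMM, -0.059 with edgeR's median-ratio factors and by DESeq2, -0.055 with median-ratio scaled FPKM and -0.043 with quantile normalization, and ran from -0.033 to 0.041 with 1 library left out. The other 7 regulators kept their sign in all settings. Zfp36l2 ran from 0.05 to 0.49 and Rc3h1 from 0.26 to 0.55 with 1 library left out.

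Over all tested genes 1432 passed (856 higher, 576 lower). By edgeR it was 444 higher and 864 lower, with median-ratio scaled FPKM 358 and 781, and with quantile normalization 469 and 752. DESeq2 called 2394 genes, the fit without a filter 903, fits without 1 library 206 to 861, and the fit without both replicates numbered 2, chosen after seeing the data, 192. Without those replicates the partners of Regnase and Roquin called numbered 0, the p38 axis genes 1 and the stem-loop targets 1. With 1 library left out, calls numbered 0 to 1 for the other mRNA-binding proteins and 0 to 1 for the partners. They numbered 1 to 1 for the p38 axis genes, 3 to 6 for the AU-rich targets and 1 to 3 for the stem-loop targets. By DESeq2 the partners called were 2. The causes were not tested, except that fewer libraries lower the power by construction.

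With the replicate number as a block (replicate block) 6 genes passed in all and 0 of the members, partners, p38 axis genes, AU-rich targets and stem-loop targets. Deviations from the group means of same-numbered libraries correlated at 0.035, -0.25 and -0.12, and those of other-numbered libraries at -0.19 to 0.27. Such values, from 3 libraries per group, cannot settle whether same-numbered libraries were handled together. For the named list genes and Mettl3, 399 of the values under other settings stayed on their side of the threshold, 43 lost it and 5 gained it, and no sign changed.

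The lowest count of a regulator was 1326. With 3 libraries per group from 1 isolate, the precision for other isolates is unknown, and levels without LPS were not analysed here.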

Other observations

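The deposited table annotates 26 genes with binding of AU-rich regions in mRNA 3′ untranslated regions, a term looked up after the lists above had been examined. Of the 23 tested, 6 are among the 8 regulators. By limma 1 rose and 0 fell, with 8 at an unadjusted p under 0.05 and a median log2 fold change of 0.16. The limma shares over all tested genes were 6.53% rising, 4.4% falling and 31.4% at that unadjusted p. The gene that rose was Rbm24, a muscle-enriched RNA-binding protein that regulates splicing and mRNA stability. It went from 19.2 ± 0.294 to 23.7 ± 1.46 FPKM (SD, n = 3; 0.29, limma adjusted p = 0.0318), and edgeR did not call it (0.23, adjusted p = 0.0661). EdgeR called 1 other gene of the term, Cpeb1, a cytoplasmic polyadenylation factor near 1 FPKM (0.786 ± 0.125 to 1.34 ± 0.116 FPKM), at 0.69 (adjusted p = 0.0412) against 0.39 by limma (adjusted p = 0.0544).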
